A study of Homo sapiens with 12 samples.

Results

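RNA that came down with wild-type (WT) HuR, an RNA-binding protein and the product of ELAVL1, was measured against the total RNA of the same line. The comparison set 3 RNA immunoprecipitation (RIP) libraries against 3 input libraries, which are 6 of the 12 libraries of the series. All were made from HuH-7, an established human hepatoma line, that stably overexpressed WT HuR carrying a V5 tag. The names of the deposited data carry the word DMSO, a common solvent control, for all 12 libraries, while the labels state no treatment. The tag was used to precipitate the protein with its RNA, and the input is total RNA of that line. The other 6 libraries came from a second HuH-7 line that carried V5-tagged HuR K120/182R, a mutant of a pair of SUMO acceptor lysines, and they were used for a side comparison. Of 57773 counted genes, 22984 held enough reads to be tested. Mock precipitates were not analysed here, so RNA that sticks to beads or antibody was not subtracted. Library preparation started from 250 ng of input RNA but only 16 to 77 ng of precipitated RNA, and that gap cannot be told apart from the precipitation itself. Whether the 3 libraries of a group stem from separate cultures is not in the labels, so p-values reflect library-to-library spread, which may be technical.

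AU-rich and U-rich stretches in introns and 3' untranslated regions (3' UTRs) are the textbook binding sites of HuR, which stabilises many of the mRNAs it contacts. It resides mostly in the nucleus and shuttles to the cytoplasm. mRNAs of secreted and membrane proteins are translated at the endoplasmic reticulum (ER), to which the signal recognition particle delivers them. That particle contains the 7SL RNA. Small nucleolar and small Cajal body RNAs (snoRNAs and scaRNAs) guide chemical modification of ribosomal and spliceosomal RNAs, and most of them are cut out of introns.

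The total gene counts of the 6 libraries ran from 33969067 to 61004308. Replicates differed by more than counting noise. Genes of the hepatocyte lineage were expressed, which does not by itself identify the labelled line. All 10 listed markers were tested, at a summed level of 5881 to 6176 CPM in RIP and 11196 to 13184 CPM in input. Of these 9 were lower in RIP and 0 higher. CPM are counts scaled to a common library size, with scaling factors from edgeR's TMM method. The 7 tested immune markers summed to 7.98 to 9.13 CPM in RIP and 8.13 to 10.7 in input, but 2 were higher and 3 lower. CD3E had 139, 179 and 144 reads in RIP libraries 1 to 3 and 20, 9 and 7 in inputs 1 to 3. CD14 went the other way, with 2, 0 and 6 reads against 4, 12 and 20. Of all 11 on the list, 1 (MS4A1) had no read in any of the 6 libraries, and 3 had fewer than 10 reads in each. Of 10 stromal and endothelial markers, 7 had fewer than 10 reads in each library, and KDR had none. In bulk RNA, fewer cells of a type and less RNA per cell cannot be told apart.

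Stretches of the 3' UTR are shown from both ends of the ranking, since HuR is known to bind U-rich sequence there. For 4 of the protein-coding genes highest in the precipitate and the 5 lowest, the 30 bases of the 3' UTR with the most T (U in the RNA) are given 5' to 3' with hg19 coordinates. Genes were taken in order of fold change, leaving out those that share exons with another gene, near-identical copies and those on a chromosome not used for sequences. Capitals mark matches on the given strand to any of 4 motifs, which may overlap: the AU-rich pentamer ATTTA, the U heptamer TTTTTTT, and that heptamer with a central A (TTTATTT) or with a central G (TTTGTTT). The 4 from the upper end are these.
MAN1A2 (chr1:118067165-118067194, plus strand): ttattttcttgtttgataagcttttctttt
DNAI4 (chr1:67278635-67278664, minus strand): tgtcattgtgattatcTTTGTTTttgtctt
ARHGAP12 (chr10:32095183-32095212, minus strand): ttttggtttctaaTTTTTTTGTTTtttcat
FAM13B (chr5:137274903-137274932, minus strand): gttatcTTTTTTTTTTTcccctcctatttt
The 5 lowest are these.
APOE (chr19:45412615-45412644, plus strand): accctagtttaataaagattcaccaagttt
PLBD2 (chr12:113827490-113827519, plus strand): ttttctttcttcttcTTTTTTTTTTGTTTt
SERPINA1 (chr14:94843993-94844022, minus strand): gtctctgcTTTGTTTtctctatctcctcct
PLXNB2 (chr22:50713433-50713462, minus strand): ccctttttgtaaatcttgttcattgtaaat
LRPAP1 (chr4:3506475-3506504, minus strand): tTTTGTTTtttggTTTTTTTTTTTTTTTTT

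U-rich windows were present on both sides. The windows of the 4 genes from the upper end held 19 to 22 T in 30 bases, and those of the 5 lowest held 10 to 27. The 3' UTRs of MAN1A2 and ARHGAP12 had 3.55 and 3.11 ATTTA matches per kb, but that of PLBD2 had 4.66, while APOE, SERPINA1 and PLXNB2 had none. Over 13219 tested coding genes with a 3' UTR of at least 100 bases, 55.4% of such windows held at least 1 of the 4 motifs. The share was 61.9% among genes higher in the precipitate and 49.7% among genes that were lower. A match describes the letters and is not evidence of a bound site.

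At an adjusted p under 0.05 (edgeR, quasi-likelihood test, Benjamini-Hochberg adjustment over all tested genes), 5875 genes were higher in the WT precipitate (25.6% of those tested) and 5835 lower (25.4%), together 50.9%. Of 14004 protein-coding genes, 3084 were higher (22%) and 4769 lower (34.1%), together 56.1%. All 3 RIP libraries stood above all 3 inputs in 6980 genes (30.4%) and below them in 6623 (28.8%). Among coding genes these were 3574 (25.5%) and 5293 (37.8%). Fold changes are log2 values of RIP over input, followed by ± their standard error (SE), and they are relative to the typical gene: the median of all tested genes was 0.06. That median rose to 1.12 when libraries were scaled by their total instead of TMM, which gave 15761 genes higher and 879 lower. It was 0.21 with TMM from protein-coding genes only (7064 higher, 4764 lower) and 0.18 with the trend over GC content removed (6883 higher, 4819 lower). Directions and counts below therefore hold relative to the bulk of the genes. Total library scaling moved 102 of the lists' counts of higher or lower members by more than 1.5 times and left 4 within that range. The distance of a list's median from the coding median, given for the lists described most closely, moved by less than its SD over the RIP libraries in 52 of 53 lists. A change of scaling shifts the fold changes of all genes nearly alike, so this distance could hardly move and is not evidence of stability. That SD was taken over single-library log2 ratios of CPM, with a small constant added, to the mean input. It is not an SD of edgeR fold changes.

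Counts of protein-coding genes made up a larger share of the precipitate than of the input, and those of 7SL and spliceosomal RNAs a smaller one. Protein-coding genes took 73.4%, 64.3% and 71.7% of the counts in RIP libraries 1 to 3, against 39.2%, 28.2% and 34.1% in inputs 1 to 3. The 7SL RNA genes held 0.570%, 0.832% and 0.679% of the counts in the precipitates and 21.3%, 22.8% and 26.4% in the inputs. Spliceosomal small nuclear RNA (snRNA) genes held 4.53%, 8.46% and 5.85% in RIP and 15.7%, 26.1% and 12.4% in input. RIP and input did not overlap for any of these classes. In contrast, 7SK RNA, a regulator of transcription elongation, had a share that went from 1.88% ± 0.384 (SD, n = 3) to 5.51% ± 1.66 (n = 3), long noncoding RNAs (lncRNAs) from 1.92% ± 0.262 (n = 3) to 4.04% ± 0.023 (n = 3), and pseudogenes from 1.26% ± 0.161 (n = 3) to 3.91% ± 0.166 (n = 3). The mitochondrial genome took 5.54% ± 0.899 (n = 3) of RIP counts and 2.10% ± 0.154 (n = 3) of input counts. Shares within a library sum to a whole, so the fall of 7SL alone raises every other share. Sums in scaled CPM overlapped for protein-coding genes (412486 to 449355 in RIP, 431170 to 450075 in input). They also did for 7SK (21703 to 50179, 21241 to 28338), lncRNAs (22484 to 28284, 23312 to 25850) and the mitochondrial genome (27782 to 43726, 21873 to 32414). Those of pseudogenes did not (22404 to 27710, 15302 to 17190). Of 10 7SK copies with a mean log2 CPM of at least 2, 1 was higher and 0 lower. Identifiers without a match in the annotation held 2.65% to 18.8% of the counts and belong to none of these classes.

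By counts of genes, several classes of small RNA leaned to the precipitate, beside 25.6% higher and 25.4% lower of all tested genes. Their summed levels did not all do so. Summed C/D snoRNA levels were 1387 to 3001 CPM in RIP and 3051 to 6193 CPM in input. For H/ACA snoRNAs the sums were 721 to 1382 CPM in RIP and 1194 to 2281 CPM in input. Those of scaRNAs were higher, 972 to 2072 CPM in RIP against 103 to 162 CPM. C/D box snoRNAs, which guide ribose methylation, passed the read filter in 127 of 388 cases. Of these 104 were higher and 5 lower, with a median of 2.84. Genes at a low level can pass that filter only through the group in which they are high, so the abundant members are given as well: of 20 with a mean log2 CPM of at least 2 over the 6 libraries, 11 were higher and 4 lower, with a median of 1.44. H/ACA box snoRNAs, which guide pseudouridylation, had 49 higher and 21 lower of 114 tested of 398 (median 0.98), and 17 higher and 8 lower of 37 abundant ones (median 0.73). Of 19 tested scaRNAs 9 were higher, and 6 of the 12 abundant ones. The class share of C/D snoRNAs in the counts was 0.322% ± 0.095 (n = 3) in RIP and 0.311% ± 0.066 (n = 3) in input, and the libraries overlapped. The scaRNA share was 0.222% ± 0.066 (n = 3) against 0.00971% ± 0.000395 (n = 3), without overlap. Of the C/D and H/ACA snoRNAs tested, 70 and 45 shared at least 10% of their exon bases with another gene that held comparable reads. Reads of a host RNA may therefore be among theirs.

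SCARNA7 (ENSG00000238741; chromosome 3, 160232695 to 160233024, minus strand, hg19) guides modification of spliceosomal RNA. Its level was 336, 818 and 478 CPM in RIP libraries 1 to 3 and 4.42, 7.54 and 4.48 CPM in inputs 1 to 3, a log2 change of 6.64 ± 0.64 (adjusted p = 2.59e-05). MIR3609, a microRNA precursor gene, stood at 96.0, 235 and 137 CPM against 1.69, 1.78 and 1.67, a change of 6.51 ± 0.42 (adjusted p = 5.56e-07). Each RIP library was far above each input for both genes, and RIP library 2 was the highest. SCARNA17 and SCARNA18 changed by 4.63 ± 0.24 and 4.36 ± 0.33 (adjusted p = 2.60e-11 and 5.42e-07). Both lie inside SNHG22, a snoRNA and scaRNA host gene that itself stood at 81.6, 131 and 78.6 CPM in RIP and 4.46, 4.06 and 4.89 CPM in input (4.44 ± 0.23), so their reads cannot be told apart. SNORA41 in EEF1B2 (4.81 ± 0.48) and SNORD2 in EIF4A2 (4.86 ± 0.64) lie wholly within annotated exons of translation factor genes. Exons of all annotated transcripts of a gene were pooled for this, so the overlap does not place these snoRNAs in the spliced mRNA. SNORD2 is a C/D snoRNA of 69 bases, shown whole because it had the largest change of its class among the named genes, with CTGA, the letters of the D box, in capitals.
SNORD2 (chr3:186502585-186502653, plus strand): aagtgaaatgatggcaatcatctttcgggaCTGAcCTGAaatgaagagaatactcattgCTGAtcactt

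The 7SL genes were the lowest of all named genes. RN7SL2, which encodes the signal recognition particle RNA, stood at 1811, 3180 and 2300.0 CPM in the precipitates and at 136954, 207142 and 192001 CPM in the inputs, a log2 change of −6.20 ± 0.37 (adjusted p = 2.49e-12). All 8 copies with a mean log2 CPM of at least 2 were lower (median −6.19). Among all 92 tested copies 26 were higher and 26 lower, with a median of 0.52. The copies are near-identical, and the treatment of reads that fit several copies is not given in the sources used here, so single copies are uncertain. Among 35 abundant snRNA genes 8 were higher and 16 lower, with a median of −0.85. Copies of Y RNA, the small RNA of Ro particles, had 50 higher and 6 lower of 86 tested (median 1.99), and 4 higher and 1 lower of the 7 abundant ones. Their share of counts was 0.349% ± 0.078 (n = 3) in RIP and 0.0466% ± 0.0162 (n = 3) in input.

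**Figure D1:**
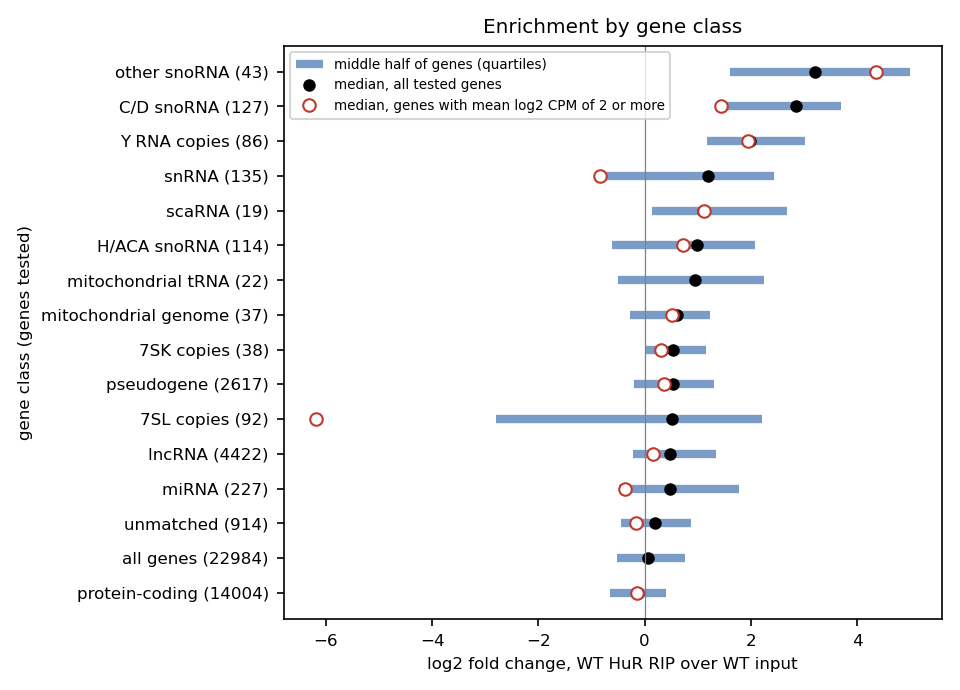
Horizontal axis, log2 fold change of WT HuR RIP over WT input relative to the typical gene; vertical axis, gene classes with the number of genes tested. Black dots are class medians, bars span the quartiles, and open circles are medians over genes with a mean log2 CPM of at least 2; C/D snoRNAs lie at 2.84 over all tested genes and at 1.44 over abundant ones, Y RNA copies at 1.99 and 1.95, and abundant 7SL copies at −6.19.

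Long noncoding RNAs leaned to the precipitate, though less so at high levels. Of 4422 tested lncRNAs 1368 were higher and 506 lower (median 0.48), and of the 607 abundant ones 238 were higher and 186 lower (median 0.15). The abundant lncRNAs lay 0.28 above the coding median. A list of 31 tested lncRNAs known from the nucleus and from cancer stood further out, with 24 higher, 2 lower and a median of 1.24. NEAT1, the scaffold of nuclear paraspeckles, stood at 167, 176 and 150.3 CPM in RIP and at 40.3, 42.0 and 42.5 CPM in input, a change of 1.98 ± 0.13 (adjusted p = 7.55e-12). CRNDE, an lncRNA raised in many tumours, changed by 2.01 ± 0.13 (adjusted p = 8.38e-12). SNHG16, a snoRNA host gene, stood at 149, 126 and 138 CPM in RIP and 129, 127 and 111 CPM in input and did not pass the test. TUG1, which the annotation now files as coding, was lower (−0.83 ± 0.15, adjusted p = 3.59e-05), but stood at 0.24 with total library scaling. The 13 mRNAs of the mitochondrial genome had 6 higher and 1 lower, and the 6 became 3 without RIP library 2, input library 1 or input library 3. For the lncRNA list, the 2 lower became 1 without RIP library 1 or input library 2. MT-CO2, a subunit of cytochrome oxidase, changed by 1.74 ± 0.26 (adjusted p = 1.3e-05), and MT-CO1, another, by 0.44 ± 0.23, which did not pass the test.

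Coding genes were ranked among those that passed the test, had separated libraries and reached a mean log2 CPM of 2. Over all tested coding genes, at any level, fold changes ran from −7.67 to 7.50. The highest in the ranking belonged to genes of several functions, with a Golgi enzyme, axonemal proteins and regulators of small GTPases among them. MAN1A2 (ENSG00000198162; chromosome 1, 117910071 to 118071494) encodes a Golgi mannosidase that trims N-glycans. It stood at 415, 461 and 637 CPM in RIP libraries 1 to 3 and at 55.9, 52.4 and 52.7 CPM in inputs 1 to 3, a change of 3.23 ± 0.16 (adjusted p = 2.51e-13). ARHGAP12, a GTPase-activating protein, stood at 444, 533 and 685 CPM against 74.5, 79.4 and 73.1, a change of 2.87 ± 0.16. DNAI4 and DNAH14, an intermediate and a heavy chain of axonemal dynein, changed by 2.92 ± 0.17 and 2.63 ± 0.17, and SPAG16, of the axonemal central apparatus, by 2.54 ± 0.16. In all 5 genes RIP library 3 was the highest, and each RIP library stood above each input.

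Further down, FAM13B changed by 2.79 ± 0.19, TASP1, a protease that cleaves the MLL protein, by 2.76 ± 0.14, and KPNA5, a nuclear import receptor, by 2.60 ± 0.15. MTHFD2L, a mitochondrial folate enzyme, changed by 2.57 ± 0.16. XKR9, of the XK family of membrane proteins, had the largest change of the named coding genes, 3.77 ± 0.22. Its input level was only 1.61 to 1.86 CPM. LRRC37A, LRRC37A2 and LRRC37A3 were also among the 15 highest (2.76 to 3.22), but they are near-identical copies and uncertain one by one.

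Most of the lowest coding genes in the same ranking encoded proteins that enter the secretory route. APOE (ENSG00000130203; chromosome 19, 45409048 to 45412650), the apolipoprotein of remnant particles, stood at 23.3, 33.4 and 29.0 CPM in RIP and at 286, 313 and 307 CPM in input, a change of −3.40 ± 0.18 (adjusted p = 6.39e-13). SERPINA1, the plasma inhibitor of neutrophil elastase, stood at 73.1, 88.9 and 63.5 CPM against 551, 576 and 590 CPM, a change of −2.93 ± 0.15 (adjusted p = 4.65e-13). PLBD2, a lysosomal protein, stood at 2.42, 2.61 and 2.43 CPM against 22.5, 23.2 and 29.0 CPM, a change of −3.32 ± 0.15. For these 3 genes every RIP library lay far below every input. The plexin PLXNB2, a semaphorin receptor, changed by −2.92 ± 0.18, the secreted chaperone clusterin (CLU) by −2.88 ± 0.15, and LRPAP1, an ER chaperone of lipoprotein receptors, by −2.84 ± 0.15. AMBP, the precursor of alpha-1-microglobulin, coagulation factor X (F10), the tetraspanin CD151, the Golgi calcium protein NUCB1, the Toll-like receptor chaperone UNC93B1 and the matrix protein FBLN1 followed between −2.77 and −2.68. CTSD (−2.93) and VTN (−2.90) share exon bases with another counted gene and are uncertain. WDR74 had the lowest value of the named coding genes, −4.07 ± 0.35. It is uncertain because an abundant U2 small nuclear RNA gene lies within its exons.

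**Figure D2:**
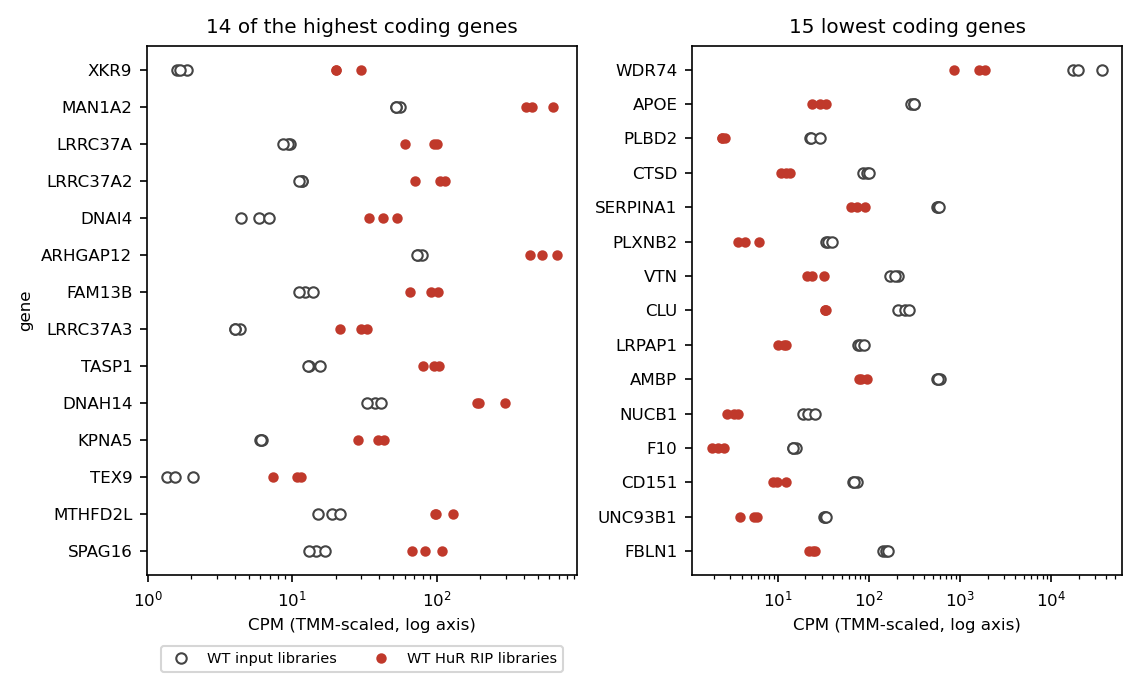
Horizontal axes, CPM after TMM scaling on a log axis; vertical axes, coding genes with the highest (left, 14 genes) and lowest (right, 15 genes) log2 fold change under the naming rule. Filled points are the 3 WT HuR RIP libraries and open points the 3 WT inputs; the groups do not overlap in any of these genes, which the rule required.

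Grouped by where the encoded protein resides, mRNAs of the secretory route were lower in the precipitate than those of the cytosol or nucleus. Of 758 tested genes for secreted, ER, Golgi, lysosomal and plasma membrane proteins, 81 were higher (10.7%) and 405 lower (53.4%). Over all coding genes the shares were 22% and 34.1%, to be set beside each list below. The median of the 758 minus that of all coding genes was −0.43 (−0.36, −0.35 and −0.30 in RIP libraries 1 to 3 taken singly). Single-library values were log2 ratios of CPM, with a small constant added, to the mean input. They are not edgeR fold changes. Genes for the cytosol and cytoskeleton had 152 higher and 195 lower of 566, with a median 0.07 above the coding median (−0.013, 0.095 and 0.071 in RIP libraries 1 to 3 taken singly, so that library 1 had the other sign). Those for the nucleus and nucleolus had 240 higher and 261 lower of 963, with a median 0.09 above it.

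Secreted proteins of the liver were mostly lower. Of 25 tested plasma proteins, 22 were lower and none higher, with a median of −1.29, which is −1.16 from the coding median. Coagulation factors and their inhibitors had 17 lower and none higher of 21 (median −1.04, which is −0.92 from the coding median), with prothrombin (F2) at −2.33 ± 0.14. Of 22 complement genes 12 were lower and none higher (2 and 6 with total library scaling), with C3, the central component, at −2.07 ± 0.14 and C5 at −0.20 ± 0.13, which did not pass the test. Apolipoproteins and lipoprotein assembly genes had 15 lower and 2 higher of 22. Cytokines and growth factors were mixed, with 8 higher and 7 lower of 26. The chemokines CXCL8 (1.40 ± 0.26), CXCL2 (1.23 ± 0.20) and CCL20 (1.19 ± 0.13), short-lived mRNAs with AU-rich 3' UTRs, were higher. CCL20 stood at 235, 222 and 214 CPM in RIP against 98.9, 113 and 82.5 CPM in input. TGFB1, a growth factor of fibrosis, was lower (−2.03 ± 0.17). Collagens and laminins had 5 higher and 14 lower of 30, and the 5 became 3 without RIP library 1, 2 without input library 1 and 3 without input library 3.

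Most lists of the ER and lysosome were lower as well. ER chaperones and folding enzymes had 19 lower and 4 higher of 25 (median −0.81). The disulfide isomerase P4HB stood at 71.3, 81.4 and 79.9 CPM in RIP and 361, 380 and 412 CPM in input (−2.31 ± 0.14), and the lectin chaperone CALR changed by −2.03 ± 0.14. UGGT2, a glucosyltransferase of glycoprotein folding, went the other way (1.93 ± 0.16). Translocation and N-glycosylation genes had 15 lower and 5 higher of 26, among them the oligosaccharyltransferase subunit RPN2 (−1.84 ± 0.12) and the translocon subunit SEC61G (1.42 ± 0.21). Cholesterol and fatty acid synthesis genes had 19 lower and 2 higher of 28. Cytochromes P450 and UDP-glucuronosyltransferases had 5 higher and 8 lower of 36, with a median 0.30 above the coding median, and the 8 became 3 without RIP library 2 and 5 without RIP library 3. Lysosomal hydrolases and membrane proteins had 36 lower and 1 higher of 42 (median −0.99, which is −0.86 from the coding median), and with total library scaling 13 were lower and 10 higher. The protease TPP1 changed by −2.47 ± 0.15, and MANBA, the beta-mannosidase, was the 1 higher gene (2.01 ± 0.16). V-ATPase subunits had 13 lower and 3 higher of 25.

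The Golgi stood closer to the coding median. Glycosidases and glycosyltransferases had 10 higher and 28 lower of 72, with MAN1A2 and MAN2A1 (1.76 ± 0.15) at the upper end and MAN1B1 (−1.97 ± 0.14) among the lower ones. All 3 encode alpha-mannosidases of N-glycan trimming. Golgins and tethers had 7 higher and 8 lower of 24, and COPI and COPII coat genes 1 higher and 11 lower of 23. The 1 higher coat gene became 2 without RIP library 1 or input library 1. At the plasma membrane, solute carriers had 116 lower and 18 higher of 225 (median −0.53, which is −0.41 from the coding median), and 16 lower and 109 higher with total library scaling, with the amino acid transporter SLC7A5 at −1.99 ± 0.14. Receptor kinases, plexins and ephrins had 35 lower and 4 higher of 57 (median −0.86, which is −0.74 from the coding median). Integrins and cadherins had 6 higher and 10 lower of 29, and the 6 became 3 without input library 1.

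Among the cytosolic lists the ribosomal proteins stood highest. Of 83 tested genes 42 were higher and 17 lower, with a median of 0.46, or 0.59 above the coding median. RPL15, of the large subunit, stood at 2423, 3093 and 2911 CPM in RIP and at 913, 895 and 855 CPM in input (1.66 ± 0.18). RPL41, another, changed by 1.38 ± 0.19. At the other end RPS15 and RPLP2 were lower, at −1.62 ± 0.18 and −1.59 ± 0.19. The distance of the list's median from the coding median had an SD of 0.31 over the 3 RIP libraries. Of the 10 coding genes with the most scaled reads in the precipitate, without regard to length, 7 were ribosomal, among them RPL15, RPL9, RPL41, RPS2, RPS12 and RPSA. RPS2 did not pass the test (0.18 ± 0.19). The other 3 were EEF1A1, the elongation factor that delivers tRNA (0.37 ± 0.18, not past the test), FTL, the ferritin light chain (−0.39 ± 0.20, not past the test), and AFP, alpha-fetoprotein, which was lower (−0.88 ± 0.19, adjusted p = 0.000412) but stood above 0 with total library scaling. Elongation and initiation factors as a list had 30 lower and 8 higher of 60.

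Other cytosolic and cytoskeletal lists differed in direction. Glycolysis had 15 lower and none higher of 20 (5 and 9 with total library scaling), with GPI at −1.92 ± 0.13 and ALDOA at −2.01 ± 0.17. Actin and tubulin genes with their binding proteins had 23 lower and none higher of 34, and 1 was higher without RIP library 1. Beta-actin (ACTB) stood at 375, 382 and 366 CPM in RIP and 1191, 1201 and 1366 CPM in input (−1.74 ± 0.17), and cofilin (CFL1) changed by −2.15 ± 0.16. Centrosome and cilium genes had 40 higher and 12 lower of 95, with a median of 0.23, or 0.36 above the coding median. BBS9, of the BBSome coat that moves cargo in cilia, changed by 2.46 ± 0.15, CEP128 by 2.28 ± 0.15 and CNTLN by 2.09 ± 0.15. Kinesins and dyneins had 14 higher (23.7%) and 15 lower (25.4%) of 59, beside 22% and 34.1% of all coding genes. Ubiquitin ligases of the HECT and cullin families had 15 higher and 7 lower of 32, with HERC4 at 1.66 ± 0.15 and HERC1 at 1.27 ± 0.13. Proteasome subunits had 7 higher and 19 lower of 44 (35 and 1 with total library scaling), and the 7 became 4 without RIP library 3 or input library 3. Aminoacyl-tRNA synthetases had 1 higher and 10 lower of 22, and cytosolic chaperones 8 and 12 of 29.

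Mitochondrial proteins encoded in the nucleus split by pathway. Ribosomal proteins of the mitochondrion had 27 higher and 21 lower of 76, with MRPL22 at 1.79 ± 0.12. Respiratory chain subunits had 31 higher and 22 lower of 77, with UQCRB, of complex III, at 1.43 ± 0.16 and NDUFV1, of complex I, at −1.84 ± 0.15. Enzymes of the TCA cycle and beta-oxidation had 19 lower and 1 higher of 29, with IDH2 at −1.74 ± 0.14. Carriers and import subunits had 16 higher (22.9%) and 28 lower (40%) of 70, near the shares of all coding genes (22% and 34.1%). Peroxisomal genes had 5 higher and 6 lower of 31.

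Nuclear lists lay on both sides of the coding median, with liver transcription factors (−0.26) and replication-dependent histones (−0.59) below it and the SUMO pathway (0.37) above it. Over all coding genes 22% were higher and 34.1% lower. Zinc finger genes of the ZNF family had 96 higher (21.1%) and 93 lower (20.5%) of 454. ZNF148, a transcription factor, was among the higher (1.84 ± 0.14). SR proteins and hnRNPs, which bind pre-mRNA, had 26 higher and 17 lower of 87. The splicing factor RBM39 stood at 458, 505 and 626 CPM in RIP and 121, 129 and 113 CPM in input (2.13 ± 0.15), RBM33 changed by 2.38 ± 0.16 and HNRNPUL1 by −2.19 ± 0.15. Nucleoporins and transport receptors had 15 higher and 16 lower of 50, with the export receptor XPO1 at 1.69 ± 0.16. Histone methyltransferases and demethylases had 15 and 16 of 54, with ASH1L at 1.75 ± 0.13. Mediator and RNA polymerase II had 24 and 25 of 75, and DNA replication and repair 14 and 13 of 41. Mitosis genes had 10 and 13 of 40 (25% and 32.5%), near the coding shares. Chromatin remodellers had 10 and 11 of 32, and the 11 became 7 without input library 3. Ribosome biogenesis genes had 12 and 20 of 53, and liver transcription factors 4 and 14 of 26. Replication-dependent histones, whose mRNAs end in a stem loop in place of a poly(A) tail, had 20 lower and 5 higher of 30, with H2BC21 at −2.58 ± 0.18 and H4C8 at 2.36 ± 0.18. Genes of the SUMO pathway had 10 higher and 3 lower of 23, including the SUMO protease SENP6 (1.15 ± 0.13) and the SUMO-targeted ubiquitin ligase RNF111 (1.36 ± 0.14).

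**Figure D3:**
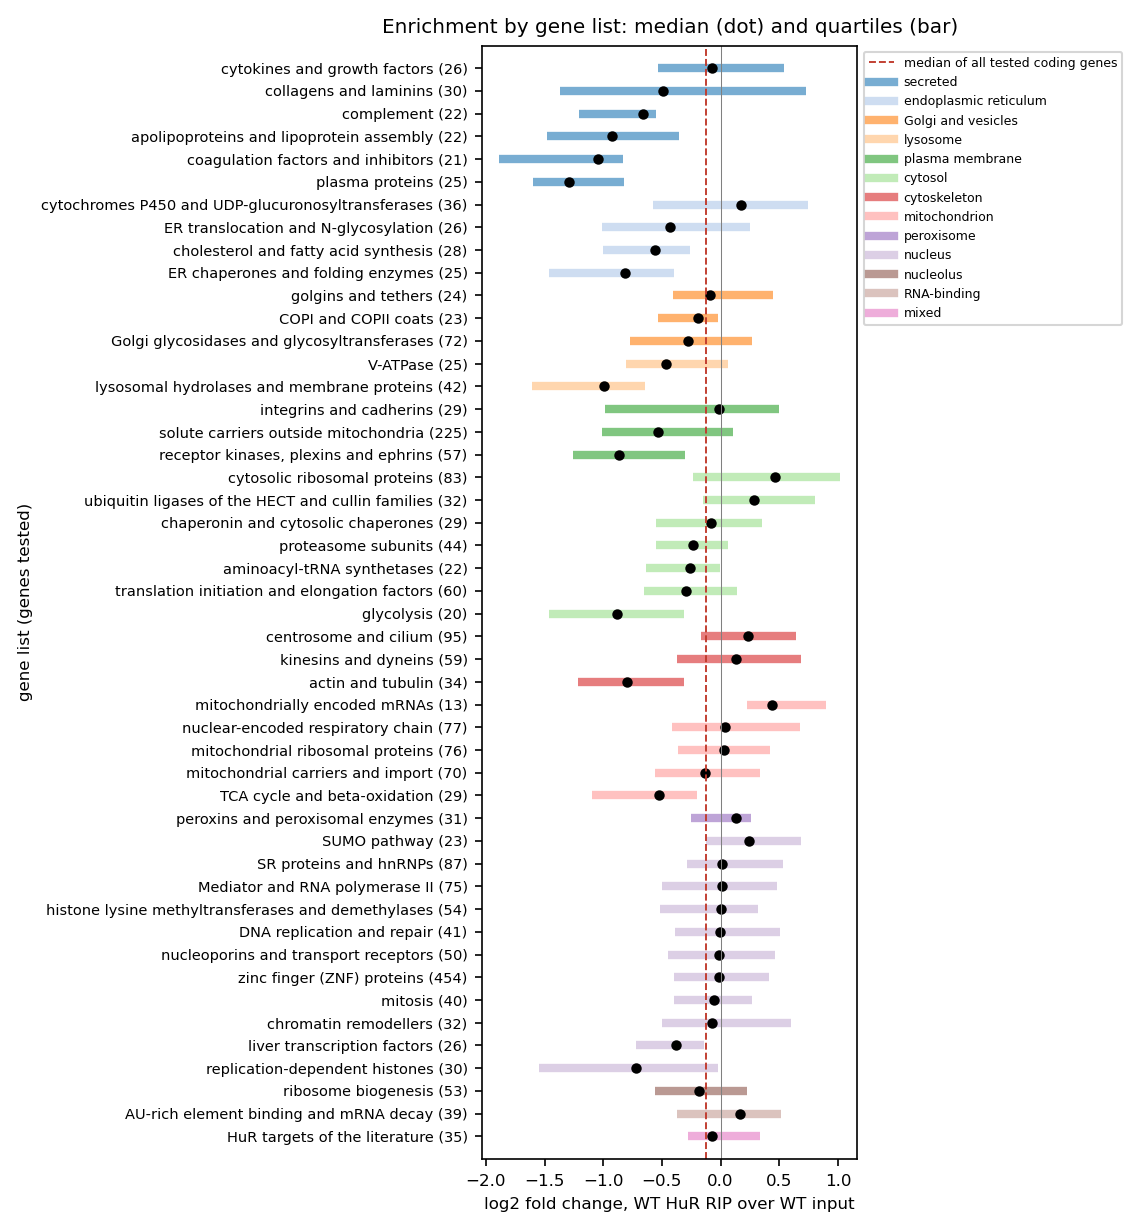
Horizontal axis, log2 fold change of WT HuR RIP over WT input relative to the typical gene; vertical axis, gene lists with the number of genes tested, coloured by the compartment of the product. Dots are medians and bars quartiles; plasma proteins (−1.29), coagulation factors (−1.04) and lysosomal proteins (−0.99) lie lowest, and ribosomal proteins (0.46) highest, against a coding median of −0.13 (dashed).

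RNAs often named as HuR targets were split between higher and lower. Of 35 tested genes from the literature 7 were higher and 7 lower, or 20% each, beside 22% and 34.1% of all coding genes, and the median of −0.07 was 0.055 above the coding median. With total library scaling 31 were higher and 1 lower. CXCL8, the polyamine enzyme ODC1 (1.21 ± 0.15) and the apoptosis inhibitor XIAP (0.55 ± 0.12) were higher, and ACTB and the chromatin regulator MTA1 (−1.50 ± 0.16) lower. ODC1 stood at 652, 472 and 593 CPM in RIP against 252, 244 and 246 CPM in input. Genes for binding AU-rich elements and for mRNA decay had 16 higher and 10 lower of 39, with UPF2, of nonsense-mediated decay, at 1.72 ± 0.14, PUM2 at 1.18 ± 0.13 and the decay factor KHSRP at −1.54 ± 0.15. ELAVL1 itself stood at 38.0, 33.0 and 32.5 CPM in RIP and 64.2, 54.1 and 56.4 CPM in input (−0.76 ± 0.12), and at 0.29 with total library scaling. Its counts do not separate the tagged gene from the cells' own.

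Transcript composition varied with the fold change more than transcript length did. Coding transcripts were split into 3 equal classes by GC content, at 43.7% and 53.8%. In the GC-poor class 1618 of 4610 genes were higher and 718 lower (median 0.18), and in the GC-rich class 358 were higher and 2633 lower (median −0.67). By transcript length the medians of 3 equal classes were −0.14, −0.16 and −0.08, by 3' UTR length −0.22, −0.11 and −0.06, and by number of exons −0.08, −0.17 and −0.13. GC content is a property of the transcript that also bears on library preparation, and its part in the result was not tested.

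Secretory genes were lower within each GC class. In the GC-poor, middle and GC-rich classes the median of the secretory route and plasma membrane was −0.23, −0.46 and −0.94, beside 0.18, −0.07 and −0.67 for all coding genes. For the cytosol and cytoskeleton it was 0.28, −0.05 and −0.81, and for the nucleus and nucleolus 0.13, 0.04 and −0.62. Lysosomal proteins stood at −0.87 and −0.91 in the GC-poor and middle classes, over 8 and 18 genes. Ribosomal proteins stood at 0.98, 0.60 and −0.29, over 16, 48 and 19 genes. With the GC trend removed, the distance from the coding median was −1.10 for plasma proteins, −0.90 for lysosomal proteins and 0.54 for ribosomal proteins, and for actin and tubulin genes it was −0.30 in place of −0.67. It was 0.19 in place of 0.36 for centrosome and cilium genes and 0.20 in place of 0.41 for HECT and cullin ligases. The SUMO pathway had 0.15 in place of 0.37, and AU-rich element binding and mRNA decay 0.058 in place of 0.30. Cytokines and growth factors moved up, to 0.39 from 0.050.

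Hydrophobic segments of the predicted protein, a rough mark of signal peptides and membrane spans, gave smaller differences than the curated lists. Proteins without such a segment had a median of −0.07 (8871 genes), those with an N-terminal segment only −0.31 (914 genes), those with 1 internal segment −0.19 (2191 genes) and those with 2 or more −0.28 (1691 genes). An N-terminal segment went with 369 lower and 149 higher genes. In the GC-poor class the medians for no segment and for an N-terminal segment were 0.20 and −0.11, in the middle class −0.02 and −0.25, and in the GC-rich class −0.61 and −0.70.

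**Figure D4:**
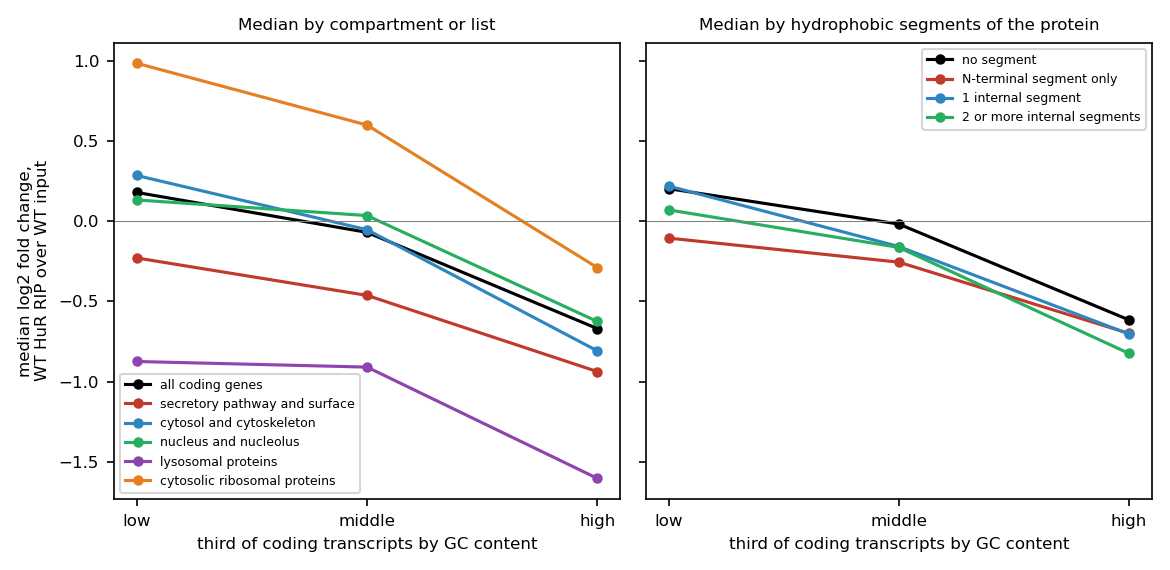
Horizontal axes, 3 equal classes of coding transcripts by GC content; vertical axis, median log2 fold change of WT HuR RIP over WT input, relative to the typical gene. Left, compartments and lists; right, proteins by hydrophobic segments. Medians fall with GC content in each group plotted, and lysosomal proteins lie below all coding genes in each class (−0.87 against 0.18 in the GC-poor class).

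Matches to the AU-rich pentamer varied together with GC content. Coding transcripts without ATTTA (2616) had a median of −0.60, those with fewer matches per kb −0.26, and those with more 0.13, split at the median of the rest. Their median GC contents were 59.6%, 52.1% and 41.2%. Within the GC-poor class the 3 medians were 0.25, 0.16 and 0.18, and within the middle class 0.02, −0.14 and 0.03. In the GC-rich class they were −0.77, −0.63 and −0.26, the last over 191 genes. Counting matches in the 3' UTR alone gave −0.47, −0.19 and 0.10 over all coding genes. The difference between transcripts with more matches and those without was 0.74, and it turned to −0.11 once the GC trend was removed. In that setting the GC-rich minus GC-poor difference also changed sign, from −0.85 to 0.13, so the removal went past the trend of coding genes. For the U heptamer the medians without a match, with fewer and with more per kb were −0.26, −0.03 and −0.04. They were 0.32, 0.19 and 0.11 in the GC-poor class and −0.008, −0.08 and −0.13 in the middle class. In the GC-rich class they were −0.66, −0.73 and −0.63. In the GC-poor class the heptamer with a central A gave 0.21, 0.19 and 0.16, and that with a central G 0.24, 0.17 and 0.14.

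**Figure D5:**
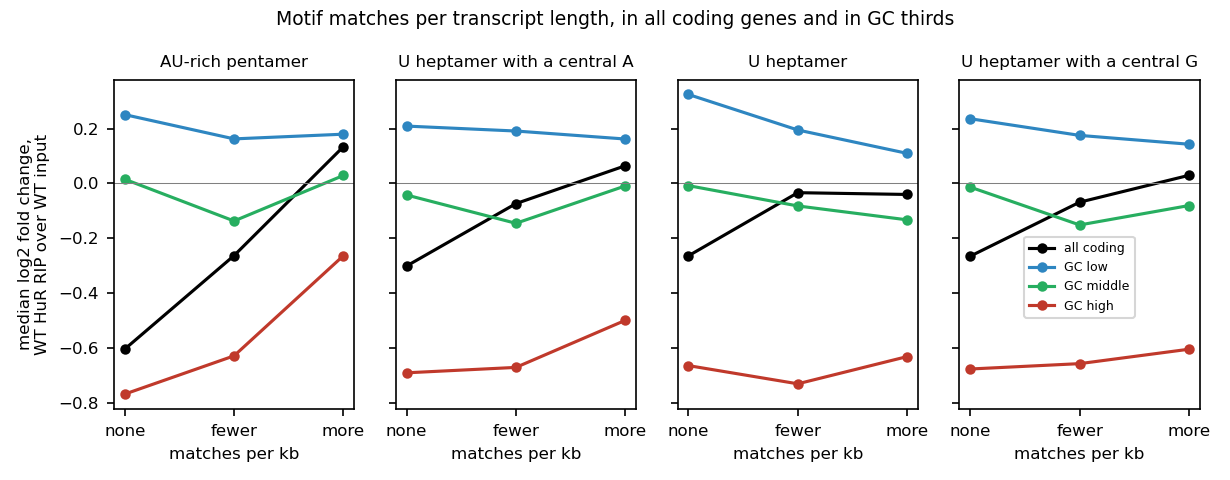
Horizontal axes, coding transcripts without a match, with fewer and with more matches per kb to the 4 motifs searched; vertical axis, median log2 fold change of WT HuR RIP over WT input, relative to the typical gene. Black, all coding genes; colours, 3 classes by GC content. For the AU-rich pentamer the median rises from −0.60 to 0.13 over all genes, and from −0.77 to −0.26 in the GC-rich class, while in the GC-poor class it is 0.25 without a match (49 genes) and 0.18 with more. For the U heptamer it goes from −0.26 to −0.04 over all genes and from 0.32 to 0.11 in the GC-poor class.

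The K120/182R line gave a matching side comparison from its own 3 RIP and 3 input libraries, which share no library with the WT comparison. There 6664 genes were higher (29%) and 6438 lower (28%), together 57%. Of coding genes 3728 were higher (26.6%) and 5055 lower (36.1%), together 62.7%. The difference of the enrichments between the lines passed the test for 15 of 22984 genes (0.0653%), all of them higher in K120/182R and none (0%) lower. For plasma proteins the medians were −1.29 in WT and −1.38 in K120/182R, for lysosomal proteins −0.99 and −1.06, for ribosomal proteins 0.46 and 0.43, for the lncRNA list 1.24 and 1.22, and for the HECT and cullin ligases 0.28 and 0.70. Differences between lines were not tested for lists, and a gene that missed the threshold is not shown to be recovered alike.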

How the data were processed

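Gene expression was measured by RNA sequencing in 12 libraries, 3 in each of 4 groups; group and replicate number come from the sample titles. Each library has its own deposited file of raw counts by Ensembl gene identifier. Per the labels' protocols the libraries were made with a stranded total RNA kit. Per the submitters' processing notes, bcl2fastq 2.20.0.422, cutadapt, STAR 2.4.0j and featureCounts 1.6.4 were used with hg19. The annotation release, strand setting and treatment of multiply mapping reads are not given in the sources used here, so antisense partners may share reads.

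Identifiers were matched to GENCODE release 44 on GRCh37, which may differ from the annotation the authors used: 55538 of 57773 matched. Genes passing filterByExpr in edgeR 4.0.16 (minimum count 10, minimum total 15; R 4.3.3, limma 3.58.1) entered a single robust quasi-likelihood fit over all 12 libraries. TMM factors were 1.43 to 1.78 in WT RIP and 0.626 to 0.909 in WT input, the common biological coefficient of variation was 0.157, and 8 residual degrees of freedom remained. Genes were called at an adjusted p (Benjamini-Hochberg, over all tested genes) below 0.05, whatever their fold change. SEs were derived from the F statistic. The fit was checked on simulated counts. Summaries used Python 3.11.15 with numpy 2.4.6, pandas 2.3.3 and matplotlib 3.10.9.

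Gene classes and 53 lists are described by counts and medians, with no set test. Members and lists were chosen with earlier results of these data known. Named genes had to pass the test, show separated libraries and reach a mean log2 CPM of 2; the rule took 15 coding genes and 8 of other classes at each end of the fold changes. It added per list up to 3 higher and 3 lower members by smallest adjusted p and the most abundant member that did not pass, the 10 coding genes with the most RIP reads, and ELAVL1. Not every gene the rule selects is named, and a few results it selects are not reported here. Transcript features and 3' UTRs came from the longest coding transcript of that annotation. Hydrophobic segments were windows of Kyte-Doolittle hydropathy (8 residues with a mean of at least 2.5 near the N terminus, 19 residues with a mean of at least 1.6 beyond residue 40) in proteins translated from GENCODE, where RefSeq proteins had been planned. Motif bins were set after the data were seen. Alternatives were DESeq2 1.42.0 size factors and test, other scalings, filters, a fold limit, a removed GC trend, subsets of libraries or genes, a replicate block and leaving out each library.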

Additional observations from a re-analysis of the deposited data

How the results depend on the processing

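Scaling by total library size gave 15761 higher and 879 lower genes and put AFP (0.19), TUG1 (0.24) and ELAVL1 (0.29) above 0, where none passed edgeR's test (adjusted p = 0.365, 0.284 and 0.174). A limit of 1 on the log2 fold change left 1503 and 1147, a fit of protein-coding genes only gave 3866 higher, and leaving out each library gave 5121 to 5602 higher and 5046 to 5518 lower. Other scalings, filters, tests and library sets kept both counts within 1.5 times. Distances from the coding median moved as follows. The stricter filter gave 0.50 for lncRNAs, 0.76 for H/ACA snoRNAs and −0.41 for integrins and cadherins, and the 6 WT libraries alone gave 0.55 for lncRNAs, 0.59 for pseudogenes and −0.22 for integrins and cadherins. Removing the GC trend gave 0.56 for lncRNAs, 2.77 for C/D snoRNAs, 1.87 for Y RNAs and −5.52 for abundant 7SL copies. It also turned the side of the chaperones (−0.25), ZNF proteins (−0.0037), nucleoporins (−0.14), SR proteins and hnRNPs (−0.027), DNA repair (−0.085) and liver transcription factors (0.020). The ATTTA difference became −0.11 and the GC-rich minus GC-poor difference 0.13. By its construction that setting shrinks the GC difference, which here went past 0. ATTTA matches are not part of the setting. Matches in the 3' UTR alone gave an ATTTA difference of 0.56, and equal classes by rank, chosen after seeing the data, gave medians of −0.56, −0.12 and 0.16. An N-terminal segment against none gave −0.34 with the stricter filter, −0.27 with the WT libraries alone, −0.14 with the GC trend removed, −0.28 with coding genes only and −0.23 with stricter windows. For 2 or more internal segments the values were −0.28 with the stricter filter and −0.15 with the GC trend removed. Leaving out each library gave 0.56 to 0.66 for lncRNAs, 0.56 to 0.73 for pseudogenes, 2.83 to 3.19 for C/D snoRNAs, 0.79 to 1.41 for H/ACA snoRNAs, 1.87 to 2.59 for Y RNAs and −6.35 to −5.77 for abundant 7SL copies. It gave −0.25 to 0.14 for integrins and cadherins, −0.00048 to 0.079 for chaperones and −0.27 to −0.24 for an N-terminal segment. The cause of these shifts was not tested unless stated. Same-numbered RIP and input libraries had correlations of 0.30, 0.13 and −0.17 over 11144 genes, so the numbers were not taken to pair libraries; a replicate block gave 5735 higher and 5817 lower genes. Counting error limits genes with few reads, and the depth of the RIP libraries was lower than that of the inputs.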
